A study of Mus musculus with 10 samples.

Results

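The 10 genes described here were taken by name for what they do, with earlier results of these data known. They were Atf4, Atf5, Asns, Trib3, Ddit3, Sesn2, Psat1, Phgdh, Shmt2 and Chac1. Atf4 encodes the transcription factor ATF4, and the others are genes of the amino acid response that it drives. They were found by symbol among the 51826 genes listed for inguinal white adipose tissue (iWAT), and all 10 were present in all 10 libraries. The F1 mice were 5-week-old male C57BL/6 offspring whose fathers had eaten a control diet (CD) or a low-protein diet (LPD), with 3 mice a group. The offspring themselves and their mothers ate CD, and within a group the 3 offspring had different mothers. Whether they also had different fathers is not given in the sources used here. They may therefore not be independent replicates of the paternal diet. The F0 mice were 10- to 12-week-old C57BL/6 males that ate CD or LPD themselves from weaning, with 2 mice a group. Each library came from 1 mouse, so p-values measure the spread between these mice. Generation, age and diet exposure change together and cannot be told apart between F0 and F1. The libraries held 6351075 to 10044546 exon reads.

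Cells sense a shortage of amino acids through the kinase GCN2, which binds uncharged transfer RNA and phosphorylates the translation initiation factor eIF2α. General translation then falls while the Atf4 messenger is translated better, so ATF4 is controlled largely at the protein level and its messenger need not move with its activity. ATF4 binds composite C/EBP-ATF response elements, often with a C/EBP partner, and turns on genes for amino acid synthesis, uptake and charging. A low-protein diet is a classic setting in which liver and other tissues use this pathway.

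The promoters are shown because ATF4 acts through a short element in them. Sesn2 was the only one of the genes called between diets on exon reads. Asns did not differ between diets on exon reads, and was called only on intron reads, a setting added after the data were seen. The element searched was TGATGNAA on either strand, which reads TTNCATCA on the other strand, in windows from 250 bases before to 50 bases after each RefSeq start (GRCm38.p6). Of the 10 genes, 3 held it, Asns, Chac1 and Trib3, as did 4.51% of the 27025 genes with a window. In Asns, which encodes asparagine synthetase, the element lay 23 bases before the start, and in the Sesn2 window these letters were absent. The 250 bases before the Asns start (chr6:7693210-7693459, minus strand) and before the Sesn2 start (chr4:132510457-132510706, minus strand) follow, with the 30 bases around the Chac1 element (chr2:119351038-119351067, plus strand) and the Trib3 element (chr2:152344028-152344057, minus strand). Capitals mark the element and all sequences run 5′ to 3′.
Asns: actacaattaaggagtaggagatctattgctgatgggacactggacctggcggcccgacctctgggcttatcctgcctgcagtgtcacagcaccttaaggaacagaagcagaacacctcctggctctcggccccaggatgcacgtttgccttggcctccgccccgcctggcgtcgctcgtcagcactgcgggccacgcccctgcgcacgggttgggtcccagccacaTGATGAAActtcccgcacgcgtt
Sesn2: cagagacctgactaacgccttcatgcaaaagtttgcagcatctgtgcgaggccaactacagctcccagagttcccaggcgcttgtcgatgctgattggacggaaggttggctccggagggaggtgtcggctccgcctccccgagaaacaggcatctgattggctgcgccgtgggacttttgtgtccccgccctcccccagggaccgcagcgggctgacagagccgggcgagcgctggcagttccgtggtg
Chac1: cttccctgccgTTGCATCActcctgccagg
Trib3: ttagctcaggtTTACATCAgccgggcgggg
The Chac1 element lay 193 bases before its start and the Trib3 element 14 bases after its start, both in the TTNCATCA orientation. A match describes the letters and not a bound site.

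Per exon length, the 10 genes spanned a wide range of levels in iWAT. Phgdh (the first enzyme of serine synthesis), Atf5 (an ATF4-related transcription factor) and Atf4 were the 3 highest in every group, followed in every group by Asns and then Psat1 (the next serine enzyme after Phgdh). In CD F1 mice the means were 33.2 ± 7.83 RPKM for Atf5, 26.9 ± 5.35 for Phgdh and 22.1 ± 3.87 for Atf4 (SD, n = 3), and the values of neighbours in this order overlapped. Asns followed at 8.60 ± 1.16 RPKM, below every Atf4 value, and Psat1 at 6.69 ± 0.585, below every Asns value. Ddit3, Shmt2 and Sesn2 lay close together at 3.96 ± 0.283, 3.32 ± 0.507 and 3.12 ± 0.431 RPKM, and Shmt2 and Sesn2 overlapped. Trib3 at 1.12 ± 0.214 RPKM and Chac1 at 0.749 ± 0.0663 were the lowest. In CD F0 mice Phgdh stood first at 43.7 ± 8.93 RPKM, above Atf4 at 22.7 ± 1.61 and Atf5 at 17.9 ± 1.59 (SD, n = 2), with no overlap between these 3. Pooled over the libraries, 40.1% of Phgdh exon reads mapped to 1 place only, against 100% for Atf4. In these CD F0 mice Phgdh had 626 and 960 such reads and Atf4 705 and 700, over exon lengths of 2486 and 1724 bases. The place of Phgdh in the order thus rests on shared reads and is uncertain. The lowest places were exchanged in the F0 groups, where Chac1 was above Trib3.

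**Figure D1:**
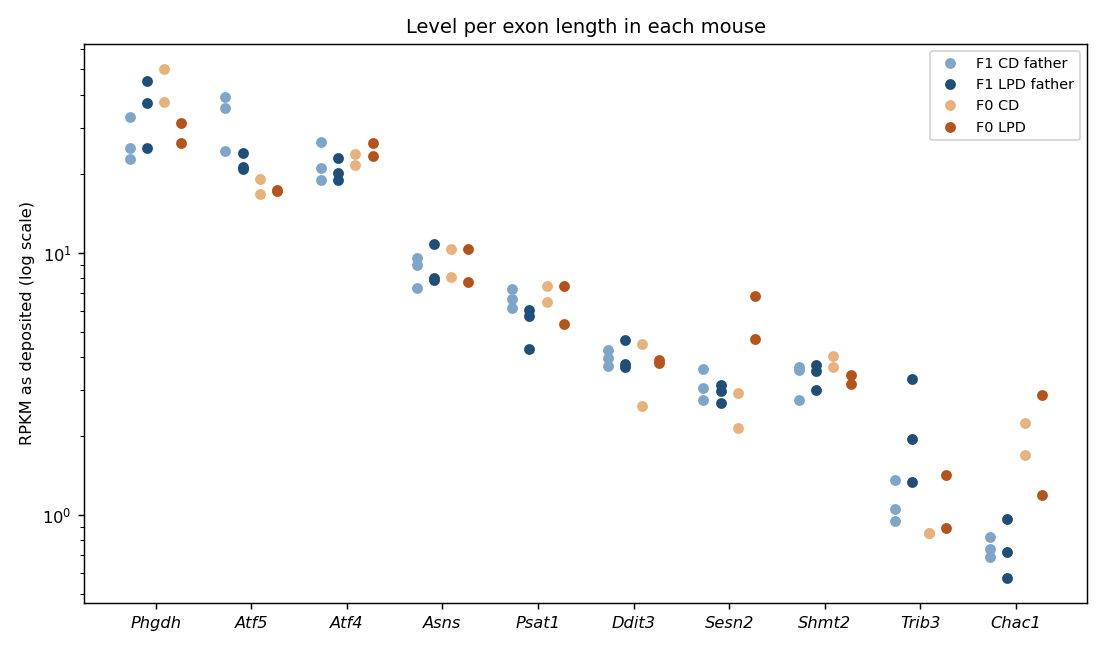
RPKM as deposited (log axis) of the 10 genes in each mouse, 1 point a mouse, coloured by group and ordered by level. Phgdh, Atf5 and Atf4 lie above the other 7 genes in every group, and Sesn2 in F0 LPD mice lies above Sesn2 in every other group.

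The only difference between diets that passed the test was that of Sesn2 in F0, which rose in LPD mice. In F0, 1 of 10 genes passed an adjusted p of 0.05 (edgeR quasi-likelihood test with Benjamini-Hochberg adjustment over 14581 genes), against 2.5% of all genes tested. In F1, 0 of 10 passed over 14049 genes (edgeR), against 1.17% of all genes tested. At an unadjusted p under 0.05, 3 of 10 differed in F1 (Trib3 and Phgdh higher and Atf5 lower in LPD offspring), where 15.3% of all genes did. At an adjusted p under 0.05 DESeq2 called 2 of 10 in F1 and limma 0. At that unadjusted threshold 2 of 10 differed in F0, Sesn2 and Phgdh, where 15.7% of all genes did. The median log2 fold change (LPD minus CD) of the 10 genes was 0.18 in F1 and 0.05 in F0, beside 0.01 and 0.00 over all genes tested. The 2 diet groups did not overlap for 1 of 10 genes in F1, where 20.1% of all genes did not; this was Trib3, and 9.21% of all genes lay wholly higher in LPD offspring and 10.9% wholly lower. In F0 they did not overlap for 5 of 10, where 46.5% of all genes did not, with Atf4, Trib3 and Sesn2 wholly higher in LPD mice (22.8% of all genes) and Phgdh and Shmt2 wholly lower (23.6%). These overlaps are on TMM-normalized exon reads and changed with the scale. On RPKM, Trib3 in F1 and Atf4 in F0 overlapped, while Atf5 and Psat1 lay wholly lower in LPD offspring. The shares of all genes were not counted on RPKM. With so few mice the smallest two-sided p an exact permutation test allows was 0.1 in F1 and 0.333 in F0, so it called no gene.

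**Figure D2:**
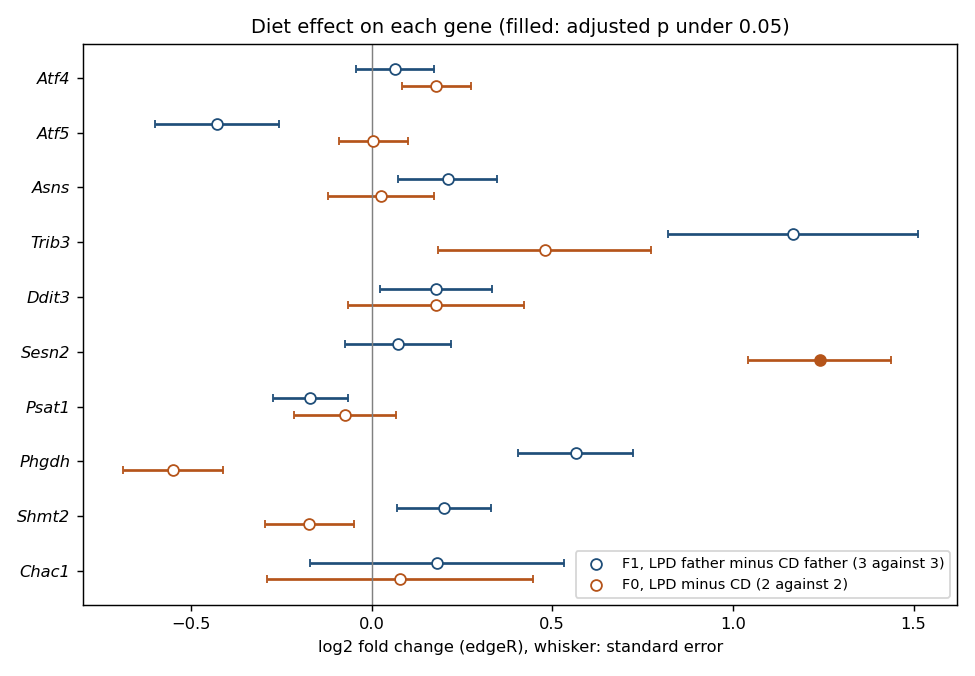
Log2 fold change of LPD minus CD for the 10 genes from edgeR, with blue for F1 (3 against 3 mice) and orange for F0 (2 against 2 mice); whiskers are standard errors and a filled point has an adjusted p under 0.05. The only filled point is Sesn2 in F0, at 1.24, and Phgdh lies at 0.56 in F1 and -0.55 in F0.

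The summed level of 8 adipocyte markers was 12900 to 21300 CPM over the 10 libraries, where CPM is exon reads per 1000000 after TMM normalization over all 10 libraries. In F0, 5 of 6 beige and brown adipocyte markers were called higher in LPD mice, with a summed level of 161 to 311 CPM in CD and 727 to 857 CPM in LPD mice. In F0, 8 of 12 skeletal muscle markers were called lower in LPD mice, with sums of 1560 to 2380 and 762 to 1050 CPM. In F1, 5 of 8 macrophage markers were called lower, with sums of 1130 to 1410 CPM in offspring of CD fathers and 785 to 920 CPM in offspring of LPD fathers. Of 4 tested epithelial markers, 2 were called lower in F1, with sums over 8 markers of 11.2 to 15.03 CPM in offspring of CD fathers and 1.53 to 5.01 CPM in offspring of LPD fathers. Beside these counts, 1.18% of all genes tested were called higher and 1.32% lower in F0, and 1.17% in either direction in F1. No marker was at 0 in all libraries. Mitochondrial ribosomal RNA took 9.29 to 10.5% of gene reads in CD F1 libraries and 13.5 to 18.2% in LPD F1 libraries. Intron reads were 36.0 to 37.5% of the reads of protein-coding genes in CD F1 libraries and 40.7 to 48.4% in LPD F1 libraries, and 36.3 to 37.9% in F0. In whole tissue, fewer cells of a type and less RNA per cell cannot be told apart, and the part of these differences in the results was not tested.

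Sesn2 (ENSMUSG00000028893, chr4:132492032-132510501 in mm10, minus strand) encodes sestrin 2, a leucine-binding protein that restrains the growth kinase mTORC1. Its level was 19.3 and 14.0 CPM in the 2 F0 CD mice and 32.4 and 46.1 CPM in the 2 F0 LPD mice, and in F1 it was 22.8, 19.6 and 25.0 CPM after CD and 27.4, 19.9 and 23.2 CPM after LPD fathers. Both F0 LPD mice stood above the other 8 mice, whereas the F1 groups overlapped. Sesn2 was 2.36-fold higher in F0 LPD mice (log2 fold change 1.24, SE 0.20, edgeR adjusted p = 0.0191, higher in 2 of 2 mice), with group means of 16.6 ± 3.80 and 39.3 ± 9.70 CPM (SD, n = 2). In F1 the log2 fold change was 0.07 (SE 0.15, edgeR adjusted p = 0.861). The F0 call was kept in 9 of 10 other settings and lost with limma on log2(RPKM + 0.1), at 1.15 (adjusted p = 0.0707), and it was lost without CD replicate 2, at 1.02 (edgeR adjusted p = 0.0511), or without LPD replicate 2, at 0.97 (edgeR adjusted p = 0.0688). In both of these cases 1 library was left in a group and was assumed to vary like the others.

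**Figure D3:**
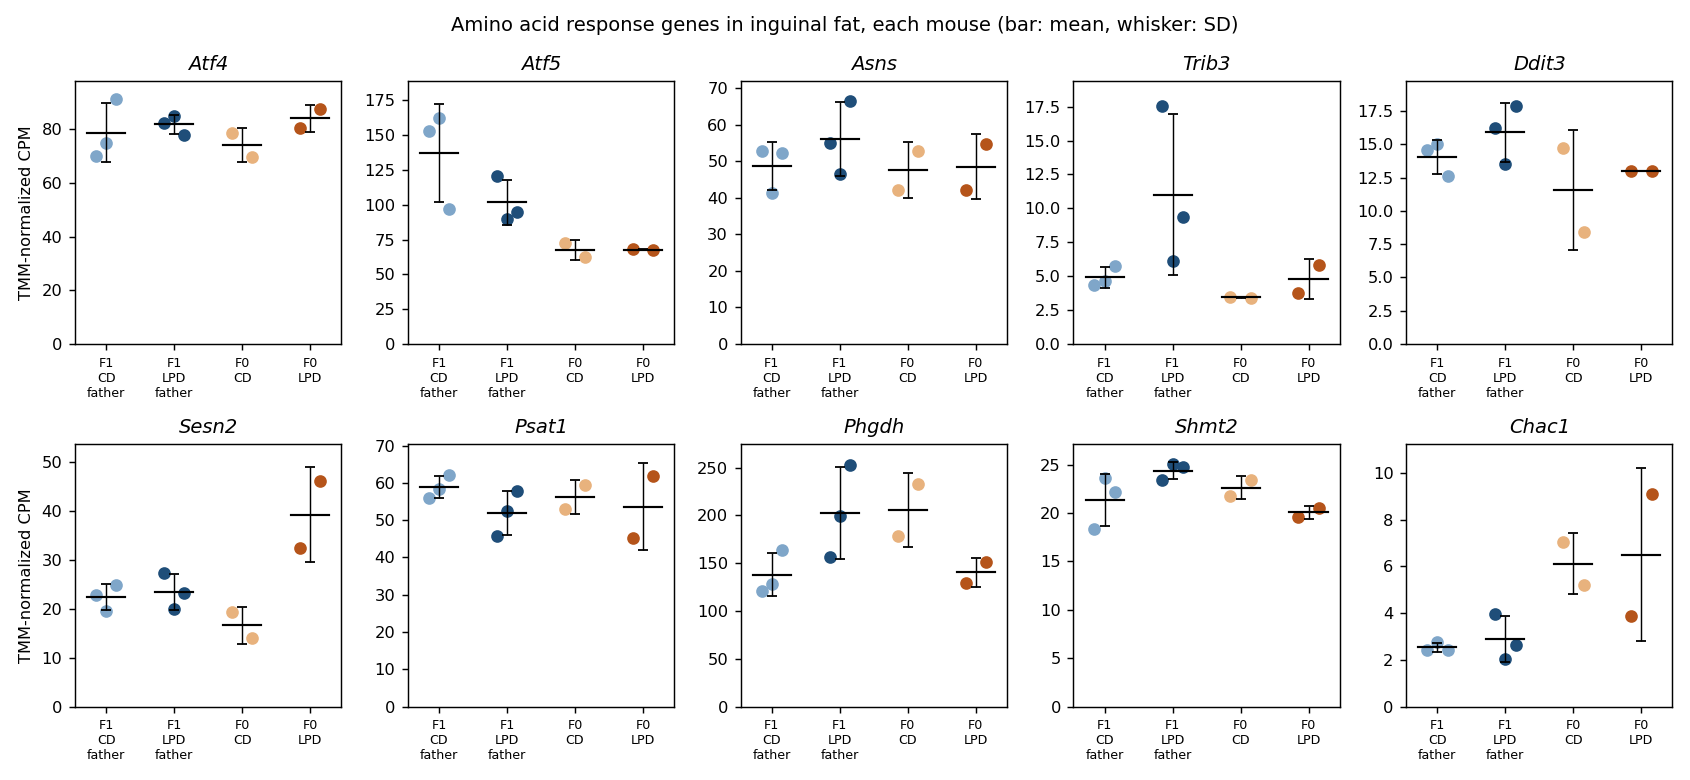
TMM-normalized CPM of the 10 genes in each mouse, 1 panel a gene with its own axis from 0; points are mice, the bar is the group mean and the whisker the SD (n = 3 in F1, n = 2 in F0). Sesn2 is 32.4 and 46.1 CPM in F0 LPD mice against at most 27.4 CPM in the other 8 mice, and Trib3 is highest in 1 offspring of an LPD father at 17.6 CPM.

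Atf4 itself (ENSMUSG00000042406, chr15:80255184-80257540, plus strand) varied little, with a range of 0.38 log2 units over the 10 libraries. It was 70.2, 74.9 and 91.3 CPM in offspring of CD fathers and 82.4, 85.0 and 78.0 CPM in offspring of LPD fathers, and the groups overlapped (log2 fold change 0.06, SE 0.11, edgeR adjusted p = 0.829). In F0 it was 78.8 and 69.8 CPM on CD and 80.5 and 87.7 CPM on LPD (log2 fold change 0.18, SE 0.10, edgeR adjusted p = 0.424). These values describe the messenger, not the protein through which the pathway is switched. Atf5 (ENSMUSG00000038539, chr7:44812256-44816658, minus strand), which is also controlled by translation, was 153, 162 and 97.3 CPM after CD and 120, 89.8 and 94.9 CPM after LPD fathers. Its F1 log2 fold change was -0.43 (SE 0.17, edgeR adjusted p = 0.267), and the third CD offspring lay among the LPD offspring. Without CD replicate 3 the Atf5 value was -0.62 (edgeR adjusted p = 0.0161). In F0 Atf5 was 72.6 and 62.7 CPM on CD and 68.2 and 67.4 CPM on LPD, below all F1 values. Ddit3 (ENSMUSG00000025408, chr10:127290774-127296288, plus strand) encodes CHOP, the factor that links prolonged stress to cell death. It lay between 12.6 and 17.9 CPM in F1 and between 8.38 and 14.8 CPM in F0, and the diet groups overlapped in both generations.

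Trib3 (ENSMUSG00000032715, chr2:152337422-152344032, minus strand) encodes a pseudokinase that is induced by ATF4 and feeds back on it. It was 4.31, 4.62 and 5.77 CPM in offspring of CD fathers and 17.6, 6.09 and 9.34 CPM in offspring of LPD fathers. On CPM all 3 LPD offspring lay above all 3 CD offspring, 1 of them far above, but the difference did not pass the threshold (log2 fold change 1.17, SE 0.35, edgeR adjusted p = 0.134). On RPKM the groups overlapped, with a highest value of 1.36 after CD and a lowest of 1.33 after LPD fathers. Trib3 rested on 31 to 115 reads a library, and the 115 reads came from LPD replicate 1, the F1 library with the highest intron share, 48.4%. Without that library the Trib3 value was 0.66 (edgeR adjusted p = 0.365), and with intron share as a covariate it was 0.05 (edgeR adjusted p = 0.987). Intron share did not overlap between the F1 diet groups, so this fit cannot tell intron share and paternal diet apart. In F0 it was 3.46 and 3.39 CPM on CD and 3.78 and 5.84 CPM on LPD (log2 fold change 0.48, SE 0.30, edgeR adjusted p = 0.503). Chac1 (ENSMUSG00000027313, chr2:119351229-119354381, plus strand) encodes an enzyme that degrades glutathione and had the fewest reads, 15 to 78 a library. It was 2.03 to 3.97 CPM in the 6 F1 mice and 3.88 to 9.11 CPM in the 4 F0 mice, and the 2 F0 LPD mice held both the lowest and the highest F0 value. Its diet difference did not pass the threshold in either generation.

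Among the enzymes, Phgdh (ENSMUSG00000053398, chr3:98313170-98339990, minus strand) had log2 fold changes of opposite sign in the 2 generations, as did Shmt2. In F1 it was 121, 129 and 164 CPM after CD and 157, 199 and 253 CPM after LPD fathers, and in F0 it was 178 and 233 CPM on CD and 130 and 151 CPM on LPD. LPD offspring held the 2 highest F1 values with an overlap of 1 mouse a group, while both F0 LPD mice lay below both F0 CD mice. The log2 fold change was 0.56 in F1 (SE 0.16, edgeR adjusted p = 0.120) and -0.55 in F0 (SE 0.14, edgeR adjusted p = 0.0815), and neither passed the threshold. Phgdh passed it in F1 in 4 of 10 other settings and in F0 in 4 of 10, with adjusted p from 0.000607 to 0.363 and from 1.83e-05 to 0.275. Without F1 CD replicate 3 the F1 value was 0.71 (edgeR adjusted p = 0.0323), and without F0 CD replicate 1 the F0 value was -0.73 (edgeR adjusted p = 0.0347). Pooled over the libraries, 40.1% of Phgdh exon reads mapped to 1 place only, against 96.7% or more for the other 9 genes. The level of Phgdh is thus uncertain where copies share reads. With unique reads alone Phgdh was 0.58 in F1 (edgeR adjusted p = 0.0496) and -0.49 in F0 (edgeR adjusted p = 0.141). On intron reads Phgdh was 0.09 in F1 (edgeR adjusted p = 0.782) and -0.21 in F0 (edgeR adjusted p = 0.466), neither past the threshold.

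The other enzymes showed no called difference. Asns (ENSMUSG00000029752, chr6:7675169-7693254, minus strand), the textbook target of the pathway, was 52.8, 41.3 and 52.2 CPM after CD and 55.2, 46.4 and 66.6 CPM after LPD fathers. In F0 Asns was 42.1 and 53.0 CPM on CD and 42.3 and 54.9 CPM on LPD, nearly the same pair of values. The Asns log2 fold change was 0.21 in F1 (SE 0.14, edgeR adjusted p = 0.514) and 0.03 in F0 (SE 0.15, edgeR adjusted p = 0.966). Psat1 (ENSMUSG00000024640, chr19:15904678-15947337, minus strand) had means of 58.9 ± 3.07 and 52.0 ± 5.95 CPM in the CD and LPD groups of F1 (SD, n = 3), and 56.3 ± 4.64 and 53.6 ± 11.7 CPM in those of F0 (SD, n = 2). On CPM its diet groups overlapped in both generations, and on RPKM those of F1 did not. Shmt2 (ENSMUSG00000025403, chr10:127517123-127522444, minus strand), the mitochondrial enzyme that turns serine into glycine, was 18.3, 23.6 and 22.1 CPM after CD and 23.4, 25.0 and 24.7 CPM after LPD fathers. In F0 Shmt2 was 21.8 and 23.4 CPM on CD and 19.6 and 20.6 CPM on LPD. Both F0 LPD mice were lower than both F0 CD mice, and the difference did not pass the threshold (log2 fold change -0.17, SE 0.12, edgeR adjusted p = 0.571).

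Whether the 2 diet effects differed was tested directly, as the F1 effect minus the F0 effect in a fit of all 10 libraries. Of the 10 genes, 0 passed (edgeR), against 1.25% of 15111 genes tested; 2 differed at an unadjusted p under 0.05, where 12.5% of all genes did, and at an adjusted p under 0.05 DESeq2 called 2 and limma 0. The genes below the unadjusted threshold were Phgdh, at 1.11 (SE 0.26, edgeR adjusted p = 0.0592), and Sesn2, at -1.18 (SE 0.27, edgeR adjusted p = 0.0550). The adjusted p ran from 3.48e-10 to 0.255 for Phgdh and from 3.60e-06 to 0.0766 for Sesn2 over 8 other settings each, with 5 and 4 of them past the threshold. Without F1 LPD replicate 1 both passed, Phgdh at 1.26 (edgeR adjusted p = 0.0180) and Sesn2 at -1.30 (edgeR adjusted p = 0.0363). Without F1 CD replicate 3 Phgdh also passed, at 1.25 (edgeR adjusted p = 0.0212), as did Sesn2 without F0 LPD replicate 1, at -1.41 (edgeR adjusted p = 0.0285).

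Introns gave a separate view, since reads there come mainly from unspliced transcripts. The setting was added after the data were seen. Asns had 98 and 141 intron reads in the F0 CD mice and 38 and 46 in the F0 LPD mice, while its exon reads hardly differed. In F1 Asns had 26, 34 and 42 intron reads after CD and 35, 51 and 51 after LPD fathers, so the 2 F0 CD mice stood above the other 8. The Asns intron difference in F0 was -1.41 (SE 0.23, edgeR adjusted p = 0.0108), against 3.48% of 14334 genes called on intron reads, and the difference between generations was 1.97 (SE 0.39, edgeR adjusted p = 0.0263), against 1.28% called. Sesn2 rose in introns as in exons, with 58 and 53 intron reads on CD and 106 and 122 on LPD in F0 (log2 fold change 1.13, SE 0.20, edgeR adjusted p = 0.0162). Psat1 had 98 and 96 intron reads on CD and 53 and 62 on LPD in F0 (log2 fold change -0.66, SE 0.20, edgeR adjusted p = 0.131). Whether strand was used in counting is not given in the sources used here, so intron reads of these genes and of antisense transcripts cannot be told apart. Trib3 and Chac1 had at most 17 and 9 intron reads a library.

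**Figure D4:**
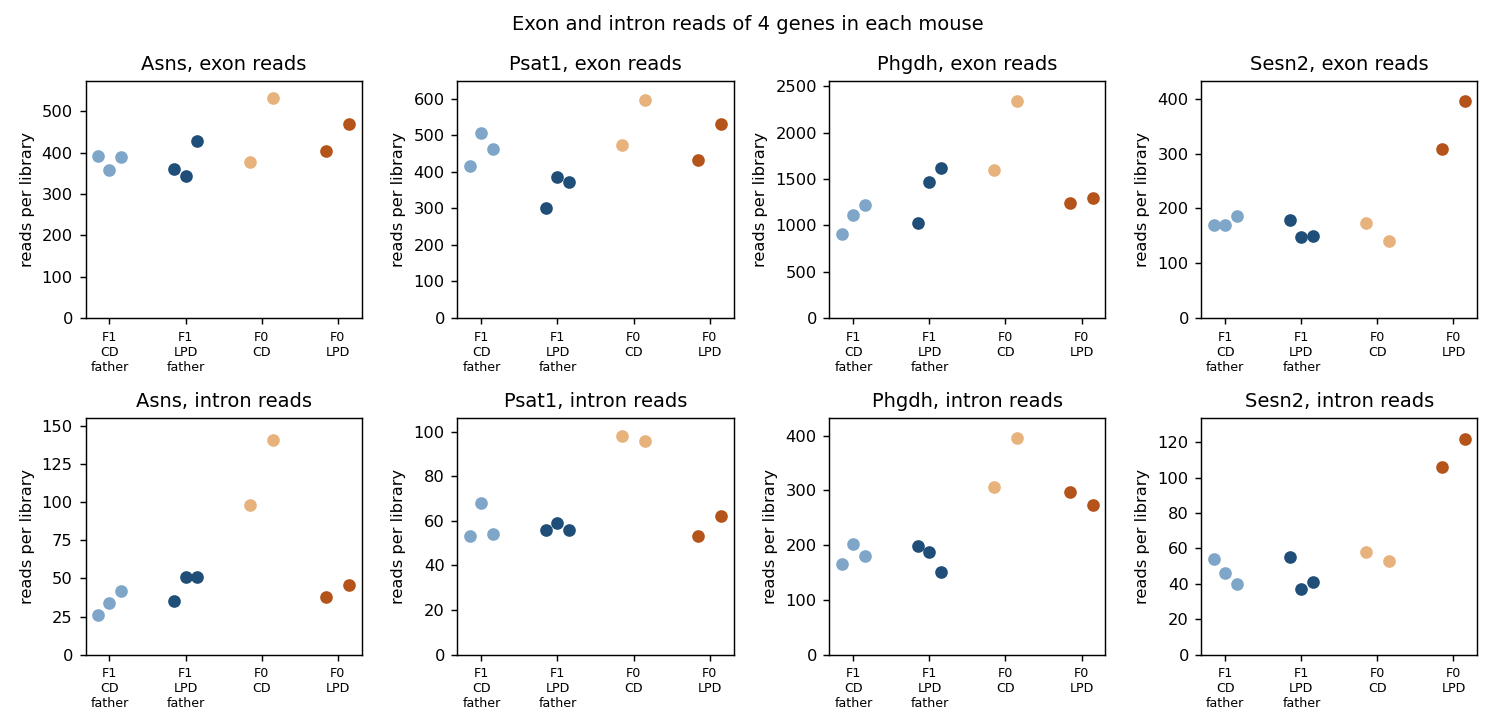
Exon reads (top row) and intron reads (bottom row) per library of Asns, Psat1, Phgdh and Sesn2, 1 point a mouse, by group, each axis from 0. Asns intron reads are 98 and 141 in F0 CD mice and 26 to 51 in the other 8, and Sesn2 intron reads are 106 and 122 in F0 LPD mice and 37 to 58 in the other 8.

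The wider pathway was described from 7 lists of 105 genes in all, 98 of them tested in F1 and 100 in F0. These lists were also chosen with earlier results of these data known, so their shares beside all genes are descriptions. In F1, 0 of 98 were called (edgeR), with 10 higher and 12 lower at an unadjusted p under 0.05, where 15.3% of all genes were below it, and DESeq2 called 3 at an adjusted p under 0.05. In F0, 3 of 100 were called higher and 5 lower, against 1.18% and 1.32% of all genes tested. The median log2 fold change over the lists was 0.02 in F1 and -0.05 in F0.

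**Figure D5:**
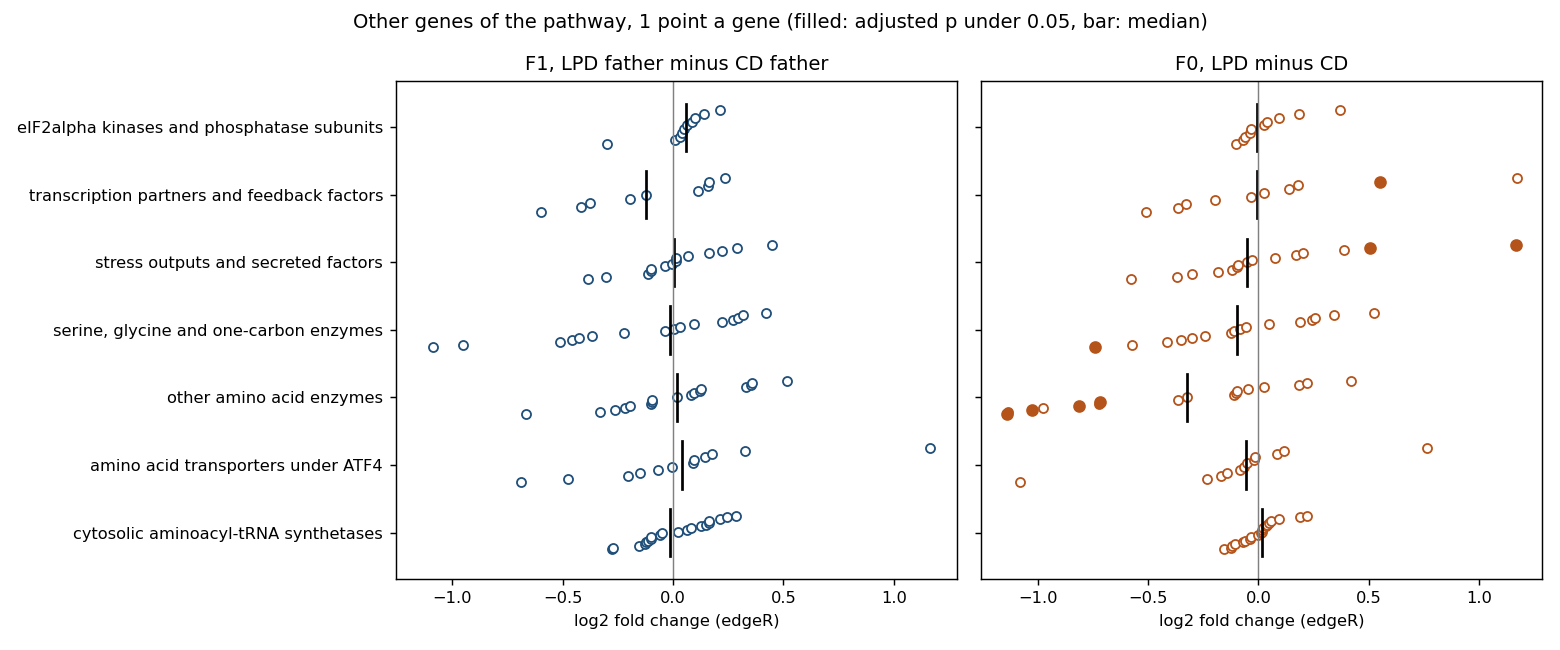
Log2 fold change (LPD minus CD, edgeR) of the tested genes of 7 pathway lists, 1 point a gene, F1 on the left and F0 on the right; filled points have an adjusted p under 0.05 and the bar is the list's median. No point is filled in F1, and 4 of the 8 filled points in F0 are enzymes of amino acid metabolism that were lower in LPD mice.

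The enzymes of other amino acids held 4 of the 8 F0 calls, with 0 of 17 genes higher and 4 lower, where 1.18% and 1.32% of all genes tested were called, and a median log2 fold change of -0.32. Gpt2, the mitochondrial alanine aminotransferase, had means of 236 ± 33.2 CPM on CD and 107 ± 1.44 CPM on LPD (SD, n = 2; log2 fold change -1.14, SE 0.11, edgeR adjusted p = 0.00373). Its cytosolic counterpart Gpt fell to a log2 fold change of -0.81 (SE 0.10, edgeR adjusted p = 0.00783), Prodh, the first enzyme of proline breakdown, to -1.03 (SE 0.21, edgeR adjusted p = 0.0448) and Bcat2, which starts branched-chain amino acid breakdown, to -0.72 (SE 0.12, edgeR adjusted p = 0.0200). These are enzymes that move nitrogen between amino acids or break them down. Of 3 tested markers of liver, a tissue rich in such enzymes, 2 were called lower in F0 LPD mice. Sums over 5 liver markers were 1170 to 1930 CPM on CD and 458 to 591 CPM on LPD. Most of each sum was Cyp2e1, with means of 1393 and 456 CPM, beside 150 and 66.3 CPM for Alb. Serpina1a overlapped between the F0 diets. Cyp2e1 also had means of 814 and 653 CPM in the CD and LPD groups of F1, where Ttr was 0 in every mouse. These sums therefore cannot be read as an amount of liver RNA. The part of the liver and muscle markers in the result was not tested. In F1 the enzyme list had 0 of 17 called (edgeR), 5 at an unadjusted p under 0.05 (15.3% of all genes), and a median of 0.02. Gpt and Gpt2 kept their F0 call whichever mouse was left out and with limma on log2(RPKM + 0.1), where the other 6 of the 8 list genes lost it, but Gpt lost it with all 4 groups in 1 fit (-0.81, edgeR adjusted p = 0.0932), as did Vldlr, Aldh1l1 and Prodh; Bcat2 lost it without CD replicate 2 (-0.55, edgeR adjusted p = 0.0627) or LPD replicate 2 (-0.65, edgeR adjusted p = 0.0916), and Prodh kept it only without CD replicate 1, with values from -1.34 to -0.61 over the 4 omissions.

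Over all genes tested in F0, 1.18% were called higher and 1.32% lower, beside the counts given here. Of 16 serine, glycine and one-carbon enzymes, 1 was called in F0. This was Aldh1l1, the cytosolic formyltetrahydrofolate dehydrogenase, which fell by 0.74 on the log2 scale (SE 0.12, edgeR adjusted p = 0.0191). Aldh1l1 lost the call without CD replicate 2 (-0.62, edgeR adjusted p = 0.0642) or LPD replicate 2 (-0.63, edgeR adjusted p = 0.0753). Of 15 tested stress outputs and secreted factors, 2 were called higher in F0: Cdkn1a, which encodes the cell cycle inhibitor p21, at 1.17 (SE 0.19, edgeR adjusted p = 0.0191), and Vldlr, a lipoprotein receptor, at 0.51 (SE 0.11, edgeR adjusted p = 0.0464). Of 10 transcription partners and feedback factors, 1 was called higher in F0: Cebpb, a partner of ATF4 at composite elements and a regulator of adipocyte differentiation, at 0.55 (SE 0.09, edgeR adjusted p = 0.0186), with 79.2 ± 1.37 CPM on CD and 116 ± 4.67 CPM on LPD (SD, n = 2). Cdkn1a lost the call without CD replicate 1 (1.14, edgeR adjusted p = 0.0544) or LPD replicate 2 (0.92, edgeR adjusted p = 0.0773). Cebpb and Vldlr each kept it only without LPD replicate 1, with values from 0.50 to 0.59 for Cebpb and from 0.38 to 0.62 for Vldlr over the 4 omissions.

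The remaining lists had 0 calls in both generations by edgeR, where 1.17% of all genes tested were called in F1 and 2.5% in F0. At an unadjusted p under 0.05, 15.3% of all genes tested differed in F1 and 15.7% in F0. The 10 eIF2α kinases, cofactors and phosphatase subunits had 0 genes in F1 and 1 in F0 at an unadjusted p under 0.05, and Gcn1l1, the coactivator of GCN2, had means of 163 ± 5.42 and 169 ± 2.61 CPM in the CD and LPD groups of F1 and 138 ± 0.411 and 134 ± 5.31 CPM in those of F0. Ppp1r15b, a phosphatase subunit that reverses eIF2α phosphorylation, had means from 143 to 155 CPM over the 4 groups. Of 12 transporters, 2 in F1 and 2 in F0 had an unadjusted p under 0.05; the glutamine transporter genes Slc1a5 and Slc38a2 had group means of 1060 to 1600 CPM and 103 to 117 CPM. Of the 20 aminoacyl-tRNA synthetases, which charge transfer RNA, 3 in F1 and 0 in F0 had an unadjusted p under 0.05, and no list had a narrower spread of F0 values, -0.15 to 0.22 on the log2 scale. Eprs and Vars had group means of 159 to 192 CPM and 91.4 to 121 CPM.

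The pattern over the 10 libraries was compared between genes by the mean absolute difference of log2 CPM, each gene taken relative to its own mean, over 9933 genes. The 5 genes nearest to Atf4 were Gpkow, March8, Gtf2e2, Trappc5 and Cnn2, at 0.0515 to 0.0604, where the mean absolute deviation of Atf4 itself was 0.0995. Nearest to Sesn2, which had the widest range among the members that averaged 10 CPM or more, were Sod3, Trp53inp2, Abcg1, Vwa8 and Acad11, at 0.134 to 0.160, against 0.330 for Sesn2 itself. These are descriptions over 10 libraries that share their groups. Of the other 9 genes, Trib3 and Chac1 averaged under 10 CPM and were not compared. None of the rest was among the 5 nearest to Atf4.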

How the data were processed

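Ribosomal RNA-depleted, directional paired-end libraries were made from iWAT RNA of 10 mice. The authors mapped reads to mm10 in CLC Genomics Workbench and deposited, per gene and library, total and unique exon reads, intron reads, total gene reads (counts) and RPKM; the annotation release is not given in the sources used here. RPKM values were used as deposited, to compare levels between genes and as an alternative scale for the diet groups. Counts of total exon reads were analysed with edgeR 4.0.16 (R 4.3.3): TMM normalization, filterByExpr, quasi-likelihood F tests, 1 fit per generation and 1 fit of 10 libraries for the difference between generations, with Benjamini-Hochberg adjustment over all genes tested and a threshold of 0.05. A standard error is the log2 fold change divided by the square root of F. limma 3.58.1 and DESeq2 1.42.0 were alternatives. All 10 genes passed the filter in each fit. A floor of 3 reads was 0.299 to 0.472 CPM. Counting intervals were not used, and Trib3 and Chac1 rested on the fewest reads. The fits were run on simulated data with the same spread for every gene and no shift in intron share, so those features were not checked. There, 2.91% of calls were false in F1, 7.11% in F0 and 4.3% for the difference between generations. Changes of 1 log2 unit were recovered in 100%, 96% and 78% of cases. The members and lists were chosen with earlier results of these data known. Named list genes were those past the threshold, at most 10 a comparison, or else the 2 with the highest mean CPM, plus the 5 genes nearest in pattern to Atf4 and Sesn2. Promoters were RefSeq windows (GRCm38.p6), matched by symbol for all 10 genes. The values of 1 called list gene are not reported here.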

Additional observations from a re-analysis of the deposited data

Results flagged for a closer look

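The diet effect differed between the generations, by the interaction test over all 10 libraries (edgeR, Benjamini-Hochberg adjustment), for 5 of the 100 tested list genes, where 1.25% of all genes tested were called, and 4 of them are given here. Gpt2 had a difference of 1.47 on the log2 scale (1.465, SE 0.15, adjusted p = 0.00266), with an effect of 0.33 in F1 and -1.14 in F0. Prodh had a difference of 1.53 (1.534, SE 0.33, adjusted p = 0.0436), with 0.52 in F1 and -1.03 in F0. Mthfd1, an enzyme of the folate cycle, had a difference of 0.71 (0.7104, SE 0.16, adjusted p = 0.0462), with 0.42 in F1 and -0.30 in F0. Cebpb had a difference of -0.98 (-0.9759, SE 0.15, adjusted p = 0.00945), with -0.42 in F1 and 0.55 in F0. Gpt2 was called whichever library was left out. Cebpb lost the call without F0 CD replicate 2 (-0.96, edgeR adjusted p = 0.0735). Mthfd1 and Prodh each lost it in 7 of 10 omissions, with values from 0.53 to 0.88 and from 1.13 to 1.86. Age and generation cannot be told apart here, and the lists were chosen with earlier results of these data known.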

How the results depend on the processing

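The only member called in the reported fit, Sesn2 in F0, kept its direction in all settings run, with values from 0.97 to 1.49. Asns in F0, uncalled at 0.03 in the reported fit, reversed on intron reads and passed there, at -1.41 (edgeR adjusted p = 0.0108). Trib3 and Chac1 rested on the fewest reads, and F0 on 2 mice a group. The members called in F1 numbered 0 in the reported fit, 2 with DESeq2, 3 with no filter on low counts, 1 with unique exon reads and 0 to 2 with 1 library left out. In F0 they numbered 1, then 2 with DESeq2, with no filter, with intron share as a covariate or with intron reads, 0 with limma, and 0 to 2 with 1 library left out. For the difference between generations they numbered 0, then 2 with DESeq2, with no filter, with a minimum of 10 reads or with unique exon reads, 1 with intron reads, and 0 to 2 with 1 library left out. The list genes called in F1 numbered 0, then 3 with DESeq2, 8 with no filter, 2 with unique reads, 2 with all 4 groups in 1 fit and 0 to 5 with 1 library left out. In F0 the list genes called numbered 8, then 21 with no filter, 2 with limma, 4 with all 4 groups, 18 with intron share and 2 to 9 with 1 library left out. For the difference between generations they numbered 5, then 13 with no filter, 2 with limma and 1 to 9 with 1 library left out. Over all genes, 164 were called in F1, then 375 with DESeq2, 798 with no filter, 339 with all 4 groups, 11 with intron share, 57 with intron reads and 18 to 510 with 1 library left out. In F0, 364 were called, then 1343 with no filter, 82 with limma, 175 with all 4 groups, 1045 with intron share and 107 to 475 with 1 library left out. For the difference between generations, 189 were called, then 353 with DESeq2, 890 with no filter, 74 with limma and 19 to 395 with 1 library left out. The causes were not tested. Of the 5 genes nearest to Atf4, 2 were shared with the list from unique exon reads. limma on RPKM moved the median of all genes to -0.15 in F1, and its calls were 2 higher and 115 lower in F1, 30 and 52 in F0, and 9 and 65 for the difference between generations, beside 20 and 144, 172 and 192, and 54 and 135 in the reported fits.

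Whether the replicate numbers pair the mice is not given in the sources used here. Same-numbered F1 libraries had correlations of 0.039, -0.00014 and 0.0072 between their deviations from the group means, and those of F0 0.049. With 2 mice a group the F0 deviations mirror each other, so every F0 pair gives the same size of correlation. Low correlations cannot exclude a shared litter or batch. With the replicate block, members called numbered 1 in F1 (Phgdh, 0.55, edgeR adjusted p = 0.0168), 2 in F0 (Sesn2 and Phgdh) and 1 for the difference between generations (Phgdh, 1.08, edgeR adjusted p = 0.00574). The list genes called with the block numbered 2 in F1 and 19 in F0, and all genes called 260 and 1391.

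Of the other values, 404 of the named genes' results under other settings kept their direction and side of the threshold, 28 newly passed it, 24 no longer passed it and 26 reversed. Those that reversed were all uncalled in the reported fit. With limma on log2(RPKM + 0.1) the values turned to those in parentheses for Atf4 (-0.090), Sesn2 (-0.091), Chac1 (-0.016) in F1 and Atf5 (-0.051), Asns (-0.028), Chac1 (-0.070) in F0. With intron reads the direction turned for Ddit3 (-0.11), Psat1 (0.098) in F1 and Atf4 (-0.41), Atf5 (-0.16), Asns (-1.41), Shmt2 (0.45) in F0 and Atf4 (0.70), Psat1 (0.76), Shmt2 (-0.27) for the difference between generations. With intron share as a covariate the direction turned for Sesn2 (-0.26), Psat1 (0.071), Chac1 (-0.46) in F1 and Asns (-0.040), Chac1 (-0.0057) in F0. With a minimum of 10 reads in every library the direction turned for Atf5 (-0.00070) in F0 and Ddit3 (0.0067) for the difference between generations. With unique exon reads the direction turned for Atf5 (-0.012) in F0. With total gene reads the direction turned for Asns (-0.16) in F0. With DESeq2 the direction turned for Ddit3 (0.0060) for the difference between generations. With DESeq2 size factors in edgeR the direction turned for Ddit3 (0.0016) for the difference between generations. Leaving out 1 library also turned the direction of some. In F1 it moved Atf4 between -0.012 and 0.18, Chac1 between -0.11 and 0.38, Sesn2 between -0.048 and 0.18. In F0 it moved Asns between -0.17 and 0.20, Atf5 between -0.097 and 0.11, Chac1 between -0.65 and 0.58, Ddit3 between -0.18 and 0.63, Psat1 between -0.31 and 0.13. For the difference between generations it moved Asns between -0.0043 and 0.37, Atf4 between -0.20 and 0.00060, Chac1 between -0.41 and 0.82, Ddit3 between -0.45 and 0.35, Psat1 between -0.32 and 0.13.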
